A study of Mus musculus with 6 samples.

Results

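The genes described here encode the constitutive proteasome and the factors that open, inhibit or assemble it. They were chosen by name: each probe set whose single annotated symbol was Psma, Psmb, Psmc, Psmd, Psme, Psmf or Psmg followed by a number was taken, and the immunoproteasome subunits Psmb8, Psmb9 and Psmb10 were left out. This gave 45 genes, measured by 51 probe sets, of 19937 genes in all. For a gene with several probe sets, the brightest, by its mean over the 6 arrays, was used. The values are deposited log2 expression levels from Affymetrix arrays of splenic plasmacytoid dendritic cells (pDCs), which are specialised producers of type I interferon. Cells positive for B220 and SiglecH were taken from mice that were wild-type (WT) or lacked IRF8 (KO), with 3 samples per genotype numbered 1 to 3 in the titles. The labels give no age, strain or allele, and do not say whether the deletion was confined to a cell type or whether samples came from separate animals, so p-values measure only how far these samples scatter, and that scatter may be technical.

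The proteasome is the barrel-shaped protease that degrades ubiquitin-tagged proteins in the cytosol and nucleus. Its core particle (20S) is built of outer alpha rings, which gate the barrel, and inner beta rings, which hold the peptidase sites, and its regulatory particle (19S) binds, unfolds and feeds in the tagged protein. In antigen-presenting cells the core also cuts proteins into peptides for MHC class I, and interferon is known to exchange its 3 catalytic subunits for the immunoproteasome forms and to induce the PA28 activator encoded by Psme1 and Psme2. The name constitutive therefore fits most but not all of the 45 genes: besides Psme1 and Psme2 they include Psma8, known from testis, and Psmb11, known from thymic epithelium.

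Array medians lay between 5.53 and 5.56 on the log2 scale. The targeted gene Irf8 measured 10.21, 9.97 and 10.24 in WT replicates 1 to 3 and 10.15, 10.49 and 10.79 in KO replicates 1 to 3, a difference of 0.34 (limma adjusted p = 0.425), so its level gave no sign of a loss in the KO arrays. How the gene was altered is not stated, so this level does not check the labels, and every direction below rests on them. Of 12 measured pDC markers 0 were called higher and 2, Ccr9 and Tlr7, lower (of all genes 2.30% and 2.08%), and the list's mean level was 11.11 to 11.26 in WT and 10.82 to 10.99 in KO. Of other cell types' lists, 9 conventional dendritic cell markers had a mean of 6.84 to 6.93 in WT and 5.86 to 5.95 in KO (1 called higher, 2 lower), 9 B cell markers 5.01 to 5.20 and 5.60 to 5.80 (3 higher), and 7 plasma cell markers 6.05 to 6.77 and 6.96 to 7.65 (2 higher). For 10 monocyte and macrophage markers the mean was 6.69 to 7.21 in WT and 6.03 to 6.82 in KO (2 lower). Of 6 T cell markers 1 was called higher and 1 lower, and of 7 NK cell and 5 erythroid markers 0 were called. The part of these cells in the results was not tested. Both arrays numbered 1 stood apart on the second principal component. KO replicate 1 also had a mean level of 9.49 over 10 neutrophil markers, against 5.55 and 6.18 in the other KO arrays and 4.78 to 6.08 in WT, and of 7.96 over 19 cell cycle genes, against 6.40 and 6.44 in KO and 5.88 to 5.96 in WT.

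No constitutive proteasome gene was called different between IRF8-deficient and WT pDCs. With limma at an adjusted p of 0.05, 0 of the 45 genes were higher and 0 were lower in KO, where 4.38% of all genes were called (2.30% higher and 2.08% lower). The lowest adjusted p among them was 0.153 and the highest 0.985. At an unadjusted p under 0.05 there were 2 of 45, or 4.44%, against 16.1% of all genes, and they were Psmc6 and Psme2. The differences, KO minus WT in log2 units throughout, ran from -0.71 for Psme2 to 0.39 for Psmc6, with 19 positive and 26 negative. Their median was -0.052, and over all genes it was -0.037. Over the 9969 genes with a mean level at or above the median gene, which include 43 of the 45, it was -0.0036. Of these 9969 genes 24.7% had an unadjusted p under 0.05, beside 4.65% of the 43. In such bulk samples, fewer cells of a type and less RNA per cell cannot be told apart. An unequal-variance test called 0 of the 45 too, but over all genes it called only 2 higher and 2 lower.

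**Figure D1:**
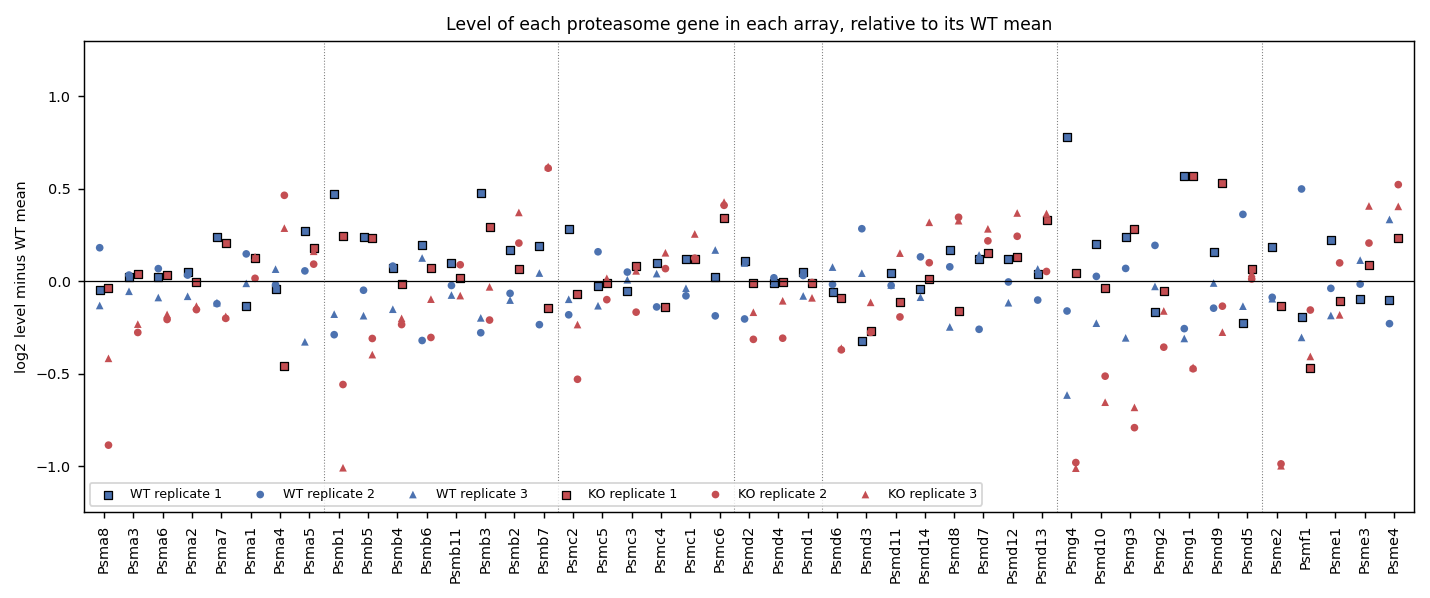
Log2 level of each of the 45 genes (x axis) in each of the 6 arrays, minus the gene's WT mean (y axis). Blue is WT, red is KO, and squares mark replicate 1. Dotted lines separate the 20S alpha ring, 20S beta ring, 19S ATPases, other 19S base subunits, 19S lid, assembly chaperones, and activators with the inhibitor. Most points lie within 0.5 of the WT mean, and Psmg4, Psmb1 and Psme2 span the widest ranges over the 6 arrays, with replicate 1 above the other KO arrays for Psmg1, Psmg3, Psmg4 and Psme2.

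The genes were measured tightly enough to bound the change of most of them. For 41 of the 45, or 91.1%, the 95% interval of the fit lay within 1 log2 unit of 0, that is, within a 2-fold change either way. Over all genes this held for 88.8%. The exceptions were Psmb1, Psmg3, Psmg4 and Psme2. The median spread between replicates of a genotype was an SD of 0.17 for the 45 genes and 0.17 for all genes. Most of the 45 were not dim: 43 had a mean above the median of all genes, all but Psma8 and Psmb11. Testing the 9969 bright genes alone called 8.70% of them (4.76% higher and 3.93% lower) and 0 of the 43. A median absolute difference of 0.16 over the 45 genes stood beside 0.14 over all genes and 0.20 over the bright ones. Differences above 0.5 in size were found for 2 of 45 (4.44%), against 11.4% of all genes, and above 1 for 0, against 3.28%. Among the bright genes these shares were 18.5% and 5.44%. On simulated data for this comparison, over 19937 genes, the test found 6.0% of true differences of 0.5 and 63.6% of differences of 1. The simulation changed far fewer genes than the 874 called here, which makes the adjusted threshold stricter, and took its spreads from all genes. Its rates are therefore not those of these subunits, but changes of 0.5 in a single subunit may well have been missed with 3 arrays per genotype.

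**Figure D2:**
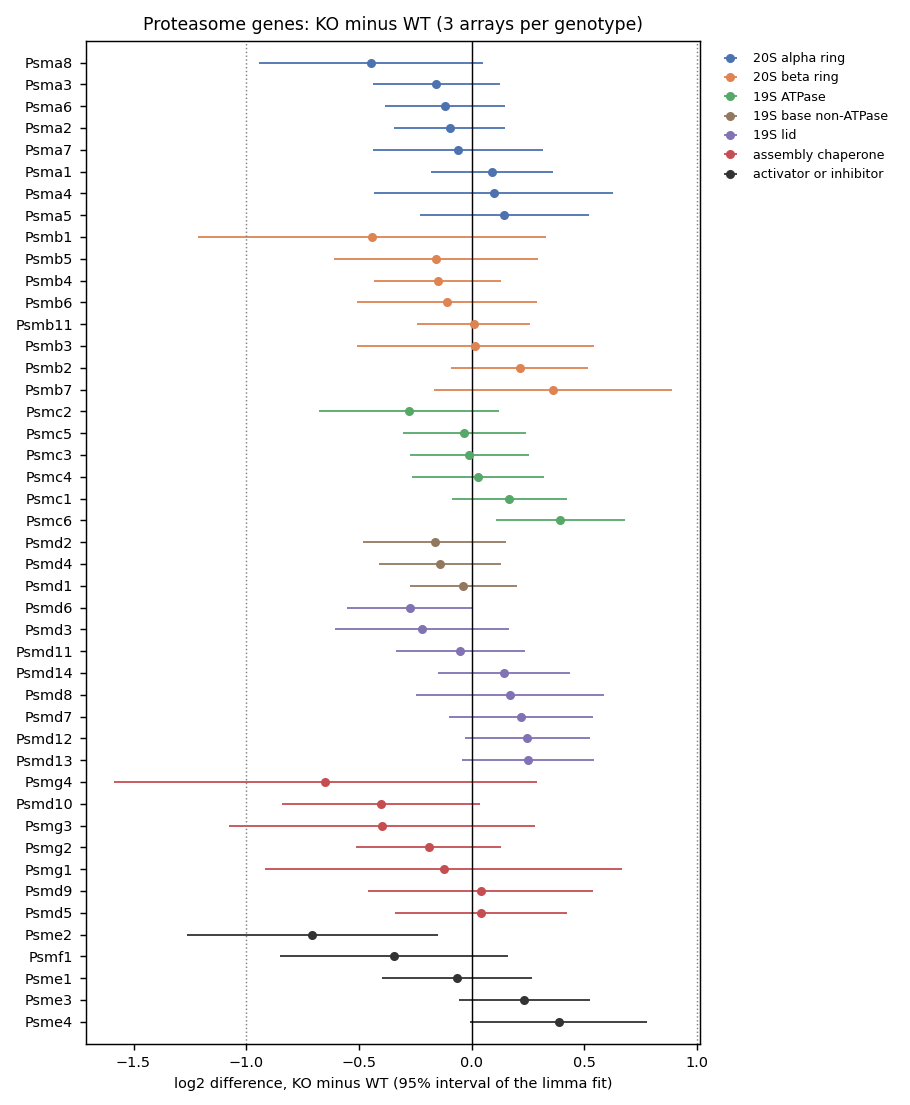
KO minus WT difference on the log2 scale (x axis) of each of the 45 genes, with the 95% interval of the limma fit as bars and colours for role groups. Dotted lines mark a 2-fold change. The intervals of Psmc6 (0.11 to 0.68) and Psme2 (-1.26 to -0.15) leave out 0 before adjustment, and those of Psmb1, Psmg3, Psmg4 and Psme2 pass the lower dotted line.

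**Figure D3:**
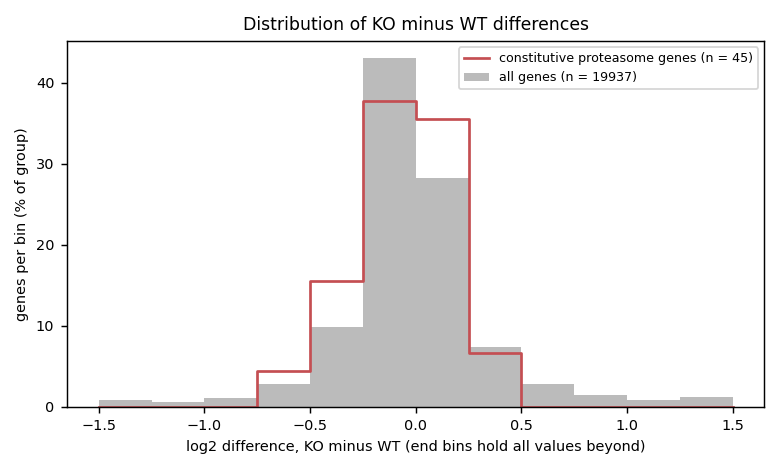
Share of genes (y axis, percent of each group) by KO minus WT difference (x axis, log2, bins of 0.25, with the end bins holding all values beyond). Grey bars are all 19937 genes and the red line is the 45 proteasome genes, of which 33 lie within 0.25 of 0 and 0 lie beyond 0.75 on either side.

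Among the alpha subunits of the core, Psma1 to Psma8, none was called, and the differences ran from -0.45 to 0.14 with 3 positive and 5 negative. Psma5, an alpha ring subunit, had the largest positive difference. It measured 9.82, 9.60 and 9.22 in WT replicates 1 to 3 and 9.73, 9.64 and 9.71 in KO replicates 1 to 3, a difference of 0.14 (SE 0.16, limma adjusted p = 0.758). The WT arrays spanned more than the KO arrays, which all lay inside the WT range. Psma8, the paralog known from testis, had the largest negative difference and a level below the array medians in all arrays. Its values were 4.62, 4.85 and 4.54 in WT replicates 1 to 3 and 4.63, 3.78 and 4.25 in KO replicates 1 to 3 (-0.45, limma adjusted p = 0.374). KO replicate 1 lay within the WT range and the other KO arrays below it. The other alpha subunits, Psma1, Psma2, Psma3, Psma4, Psma6 and Psma7, differed by -0.16 to 0.097.

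The beta subunits, among them the carriers of the peptidase sites, were likewise not called in either direction. Psmb5, the chymotrypsin-like subunit, measured 10.37, 10.09 and 9.95 in WT replicates 1 to 3 and 10.37, 9.82 and 9.74 in KO replicates 1 to 3, a difference of -0.16 (95% interval -0.61 to 0.29, limma adjusted p = 0.782). The genotypes overlapped, and within each the array numbered 1 was the highest. Psmb6, the caspase-like subunit, measured 11.08, 10.56 and 11.01 in WT replicates 1 to 3 and 10.95, 10.58 and 10.78 in KO replicates 1 to 3 (-0.11, 95% interval -0.51 to 0.29, limma adjusted p = 0.84), also overlapping. Psmb7, the trypsin-like subunit, went the other way. Its values were 9.03, 8.60 and 8.88 in WT replicates 1 to 3 and 8.69, 9.45 and 9.46 in KO replicates 1 to 3, the largest positive difference of the beta ring (0.36, 95% interval -0.17 to 0.89, limma adjusted p = 0.524). KO replicates 2 and 3 lay above all WT arrays and KO replicate 1 inside the WT range. With both arrays numbered 1 left out, a choice made after the data were seen, Psmb7 was higher in KO by 0.71 (limma adjusted p = 0.0376), where 6.93% of all genes were called (3.72% higher). Psmb1, a structural beta subunit, had the largest negative difference of the beta ring and the widest interval of the core. It measured 10.07, 9.31 and 9.42 in WT replicates 1 to 3 and 9.84, 9.04 and 8.59 in KO replicates 1 to 3 (-0.44, 95% interval -1.21 to 0.33, limma adjusted p = 0.611), with replicate 1 again the highest of each genotype. Psmb2, Psmb3 and Psmb4, also structural, differed by 0.21, 0.017 and -0.15, and Psmb11, the thymic form of Psmb5, by 0.0081. Psmb5 and Psmb11 are neighbouring genes.

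The immunoproteasome subunits, which replace the catalytic beta subunits, gave no called difference beside them. Psmb8, which replaces Psmb5, measured 9.89 ± 0.11 (SD, n = 3) in WT against 9.67 ± 0.055 (SD, n = 3) in KO, a difference of -0.22 (limma adjusted p = 0.38), with all KO arrays below all WT arrays. Psmb9, which replaces Psmb6, measured 9.53 ± 0.25 (SD, n = 3) in WT against 9.99 ± 0.37 (SD, n = 3) in KO (0.47, limma adjusted p = 0.344), and Psmb10, which replaces Psmb7, 9.87 ± 0.19 (SD, n = 3) in WT against 9.62 ± 0.15 (SD, n = 3) in KO (-0.24, limma adjusted p = 0.478). The genotypes overlapped for Psmb9, while for Psmb10 all KO arrays also lay below all WT arrays. In the same arrays 11 of 19 interferon-stimulated genes were called higher and 0 lower, beside 2.30% and 2.08% of all genes, with a median difference of 1.15 against -0.037 over all genes. Whether these lists differ from each other was not tested.

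The ATPases of the regulatory particle, Psmc1 to Psmc6, form the ring that unfolds substrates and threads them into the core. Psmc6 had the largest positive difference of all 45 genes. It measured 8.38, 8.18 and 8.53 in WT replicates 1 to 3 and 8.70, 8.77 and 8.79 in KO replicates 1 to 3, that is 8.37 ± 0.18 (SD, n = 3) in WT against 8.76 ± 0.047 (SD, n = 3) in KO, a difference of 0.39 with an SE of 0.12 and a limma adjusted p of 0.153. An exact two-sided permutation test gave p = 0.10, and no smaller p is possible with 3 against 3 arrays. All KO arrays lay above all WT arrays. Psmc2 had the largest negative difference of the ring, with 8.91, 8.44 and 8.53 in WT replicates 1 to 3 and 8.56, 8.10 and 8.39 in KO replicates 1 to 3 (-0.28, limma adjusted p = 0.514), and its genotypes overlapped. Psmc1 differed by 0.17, with KO replicate 1 just above the highest WT array and the other KO arrays further above, and Psmc3, Psmc4 and Psmc5 by -0.010, 0.026 and -0.032. The ring as a whole had 3 positive and 3 negative differences and a median of 0.0081.

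The other base subunits, Psmd1 and Psmd2, which are scaffolds, and Psmd4, a ubiquitin receptor, all had small negative differences. Psmd2 measured 9.04, 8.73 and 9.03 in WT replicates 1 to 3 and 8.92, 8.62 and 8.76 in KO replicates 1 to 3 (-0.16, limma adjusted p = 0.655). Its genotypes overlapped. Psmd4 differed by -0.14 and Psmd1 by -0.037, the latter with an interval of -0.27 to 0.20 that was the narrowest of the set. Of the lid, which removes ubiquitin chains, the set holds 8 genes, with 5 positive differences and a median of 0.16. Psmd14, the deubiquitinase itself, differed by 0.14 (95% interval -0.15 to 0.44) and its partner Psmd7 by 0.22 (-0.10 to 0.54). The structural lid subunit Psmd13 had the largest positive difference, with 7.53, 7.39 and 7.56 in WT replicates 1 to 3 and 7.83, 7.55 and 7.86 in KO replicates 1 to 3 (0.25, limma adjusted p = 0.402). KO replicate 2 lay inside the WT range and the other KO arrays above it. Psmd6, another structural subunit, had the largest negative one. It measured 9.09, 9.13 and 9.22 in WT replicates 1 to 3 and 9.06, 8.77 and 8.78 in KO replicates 1 to 3 (-0.27, limma adjusted p = 0.323), and all KO arrays lay below all WT arrays, KO replicate 1 by little. Psmd3, Psmd8, Psmd11 and Psmd12, the remaining structural lid subunits of the set, differed by -0.22, 0.17, -0.052 and 0.25.

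Across the whole set, the KO arrays lay above all WT arrays for 4 of the 45 genes, Psmc1, Psmc6, Psmd7 and Psmd12, and below all of them for 2, Psmd6 and Psme2. Among all genes these shares were 8.71% and 11.7%, or 20.4% on either side, and among the 45 they were 8.89% and 4.44%, so the first was close to that background and the second below it. Among the 9969 bright genes they were 13.9% and 12.8%, and among the 43 bright members 9.30% and 4.65%, both below that background. Several separations were narrow. The lowest KO and highest WT values were 8.586 and 8.584 for Psmc1, 7.74 and 7.73 for Psmd7, and 8.67 and 8.66 for Psmd12. For Psmc6 they were 8.70 and 8.53.

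Assembly chaperones were the most variable of the role groups, with a median SD within genotypes of 0.32 against 0.12 for the ATPases. Psmg1 and Psmg2 form 1 chaperone pair of the alpha ring and Psmg3 and Psmg4 another, while Psmd5, Psmd9 and Psmd10 help to build the regulatory particle's base. None was called, 5 of 7 differences were negative and the median was -0.19. Psmg4 had the largest negative difference of the group. It measured 9.60, 8.66 and 8.21 in WT replicates 1 to 3 and 8.87, 7.84 and 7.81 in KO replicates 1 to 3, a difference of -0.65 (SE 0.40, 95% interval -1.59 to 0.29, limma adjusted p = 0.517). Within each genotype replicate 1 was the highest, by more than the genotype means differed, and the genotypes overlapped. Psmg3 measured 7.88, 7.71 and 7.33 in WT replicates 1 to 3 and 7.92, 6.85 and 6.95 in KO replicates 1 to 3 (-0.40, limma adjusted p = 0.599). Its KO replicate 1 was the highest of the 6 arrays and the other KO arrays were the lowest. Without KO replicate 1, Psmg3 was lower in KO by 0.74 (limma adjusted p = 0.0496), where 7.52% of all genes were called (3.91% higher and 3.61% lower). With both arrays numbered 1 left out, a choice made after the data were seen, Psmg3 was lower by 0.62 and not called (limma adjusted p = 0.0818). Psmd5 had the largest positive difference, with 5.55, 6.14 and 5.64 in WT replicates 1 to 3 and 5.84, 5.79 and 5.82 in KO replicates 1 to 3 (0.040, limma adjusted p = 0.948), and its KO arrays lay inside the WT range. Psmd10, also known as gankyrin, differed by -0.40 (limma adjusted p = 0.364), Psmg2 by -0.19, Psmg1 by -0.12 and Psmd9 by 0.040.

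For some of these genes the array numbered 1 stood above the others in both genotypes. That array was the highest of its genotype in both WT and KO for 15 of the 45 genes, or 33.3%, and the lowest in both for 2, Psma4 and Psme3. Over all genes the shares were 22.0% and 13.6%. Over the 9969 bright genes they were 25.4% and 17.1%, and over the 43 bright members 34.9% and 4.65%. The 15 comprised 5 of the 7 assembly chaperones (Psmg1, Psmg3, Psmg4, Psmd9 and Psmd10), 4 of the 8 beta subunits (Psmb1, Psmb3, Psmb5 and Psmb6), Psma2, Psma5, Psma7, Psmc2, Psmd2 and Psme2, and 0 of the 8 lid subunits. Some leads were small, such as 9.04 against 9.03 for Psmd2 in WT and 9.73 against 9.71 for Psma5 in KO. Psmg1 shows the pattern at its plainest, with 7.67, 6.84 and 6.79 in WT replicates 1 to 3 and 7.67, 6.63 and 6.63 in KO replicates 1 to 3. Replicate 1 exceeded the mean of the other arrays by 0.85 in WT and 1.04 in KO, while the genotypes differed by -0.12 (limma adjusted p = 0.915). Psma4 ran against it in KO, where replicate 1 measured 8.25 and the other arrays 9.17 and 8.99, beside 8.66 to 8.77 in WT. The labels do not say what the number stands for. The neutrophil and cell cycle genes were high in KO replicate 1 too. In WT replicate 1 the neutrophil markers had a mean of 6.08, against 5.10 and 4.78 in the other WT arrays. The cell cycle genes had a mean of 5.88 there, against 5.96 and 5.95. The part of either list in this pattern was not tested.

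**Figure D4:**
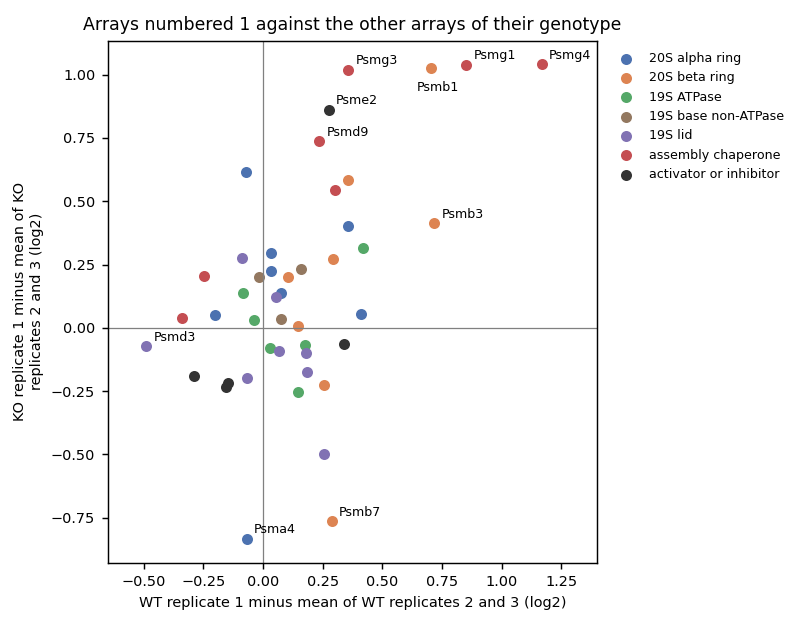
Log2 level in replicate 1 minus the mean of replicates 2 and 3, in WT (x axis) and in KO (y axis), for each of the 45 genes, coloured by role group. Psmg1, Psmg4 and Psmb1 lie at the upper right, at 0.70 or more in WT and 1.03 or more in KO, while Psma4 and Psmb7 lie at the bottom, at -0.83 and -0.76 in KO.

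The activators and the inhibitor held the largest negative difference of the set. Psme2, the beta subunit of PA28, measured 10.44, 10.17 and 10.16 in WT replicates 1 to 3 and 10.12, 9.26 and 9.25 in KO replicates 1 to 3, that is 10.25 ± 0.16 (SD, n = 3) in WT against 9.55 ± 0.50 (SD, n = 3) in KO. This was a difference of -0.71 with an SE of 0.24, a 95% interval of -1.26 to -0.15 and a limma adjusted p of 0.186 (exact permutation p = 0.10). All KO arrays lay below all WT arrays, but KO replicate 1 only just. With array weights Psme2 was lower by 0.88 (limma adjusted p = 0.0348), where 6.84% of all genes were called (3.59% higher and 3.25% lower). Without KO replicate 1 it was lower in KO by 0.99 (limma adjusted p = 0.00638). With both arrays numbered 1 left out, chosen after the data were seen, it was lower by 0.90 (limma adjusted p = 0.00981), where 3.22% of all genes were called lower. Psme2 has a close copy, Psme2b, that may share its signal, and a probe set listed for both was not used. Psme1, the alpha subunit that joins it in the same ring, showed no such difference. It measured 10.96 ± 0.21 (SD, n = 3) in WT against 10.90 ± 0.15 (SD, n = 3) in KO, a difference of -0.064 (95% interval -0.40 to 0.27, limma adjusted p = 0.895), and its genotypes overlapped. Psme4, the nuclear activator PA200, had the largest positive difference, with 7.49, 7.37 and 7.93 in WT replicates 1 to 3 and 7.83, 8.12 and 8.0 in KO replicates 1 to 3 (0.39, limma adjusted p = 0.321). KO replicate 1 lay inside the WT range and the other KO arrays above it. Psme3, the nuclear PA28 gamma, differed by 0.23 (limma adjusted p = 0.436) and Psmf1, the inhibitor PI31, by -0.34 (limma adjusted p = 0.526).

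**Figure D5:**
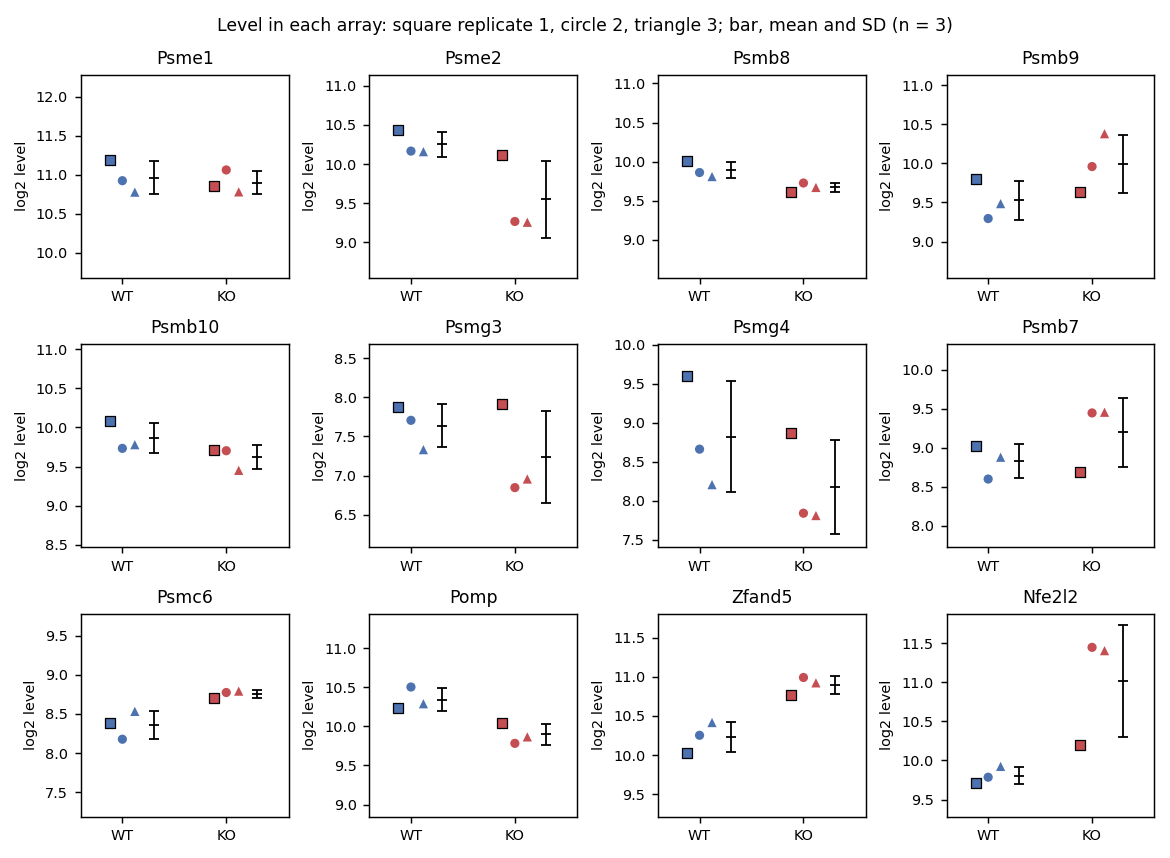
Log2 level in each array (y axis, the same span in every panel) of 12 genes in WT (blue) and KO (red), with the mean and SD (n = 3) beside them. Psme2, Psmg3, Psmb7 and Nfe2l2 show KO replicate 1 (square) away from the other KO arrays, while Psmc6, Zfand5 and Pomp show KO arrays on one side of all WT arrays.

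Psme1 and Psme2 lie close together on the chromosome, with 1 protein-coding gene, Emc9, between them. Because Psme2 had the largest negative difference and its ring partner a small one, the 250 bases before each start are shown, from RefSeq on GRCm38.p6, 5′ to 3′ in the direction of transcription. That of Psme1 is chr14:55578244-55578493 (plus strand), and that of Psme2, which has 2 listed starts, is chr14:55591102-55591351 (minus strand) for the first listed.
Psme1: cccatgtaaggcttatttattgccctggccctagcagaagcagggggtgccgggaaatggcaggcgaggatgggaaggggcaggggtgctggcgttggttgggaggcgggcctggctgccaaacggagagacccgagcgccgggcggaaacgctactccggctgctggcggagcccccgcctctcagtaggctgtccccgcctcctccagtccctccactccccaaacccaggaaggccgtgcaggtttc
Psme2: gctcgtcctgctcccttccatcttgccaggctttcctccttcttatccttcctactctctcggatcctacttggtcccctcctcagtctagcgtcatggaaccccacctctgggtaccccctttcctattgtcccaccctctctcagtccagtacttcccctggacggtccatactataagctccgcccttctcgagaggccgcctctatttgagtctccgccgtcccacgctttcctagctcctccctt
Neither stretch holds a match to the interferon response element core, the ETS-IRF composite, the antioxidant response element core or the E-box on either strand. These motifs are spelled out with the next searches, and no letters here are in capitals. Both stretches end before the start. In the 50 bases after it, Psme1 has an interferon core match (bases 10 to 19) and an overlapping ETS-IRF composite (16 to 25). The windows of Psme2 hold none of these motifs there either. Nothing about the factors follows from these letters.

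The promoter windows of the set, from 250 bases before to 50 after a gene start, were searched on both strands for 5 motifs. Of the 45 genes 37 had a window in the RefSeq table, 40 windows in all, and Psma8, Psmb1, Psmb2, Psmb7, Psmc3, Psmd3, Psmd7 and Psmg2 had none there. The interferon response element core (GAAA, any 2 bases, GAAA), the type of site that IRF factors bind, was found in 5 of the 40 windows (12.5%), against 3.44% of 32851 windows of all genes. These 5 are shown because IRF8 belongs to that factor family, with the match in capitals and in the direction of transcription. A match that reads TTTC first lies on the other strand.
Psme1: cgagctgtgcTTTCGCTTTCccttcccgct
Psmg4: gcgcgcatctGAAAGTGAAAgagcgttccg
Psmd9: gggacagaatGAAAAAGAAAggaatgaaca
Psmb3: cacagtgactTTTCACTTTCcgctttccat
Psmd4: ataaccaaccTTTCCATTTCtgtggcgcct
On GRCm38.p6 they are chr14:55578493-55578522 (plus strand) for Psme1, chr13:34162969-34162998 (plus strand) for Psmg4, chr5:123228021-123228050 (plus strand) for Psmd9, chr11:97703261-97703290 (plus strand) for Psmb3 and chr3:95042675-95042704 (minus strand) for Psmd4. The differences of these 5 genes were -0.064, -0.65, 0.040, 0.017 and -0.14, none of them called. The ETS-IRF composite (GGAA, any 2 bases, GAAA) was found in 2 windows (5.0%, against 2.72%), those of Psmc2 and Psme1, where it overlaps the interferon core.

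The antioxidant response element core TGACNNNGC, bound by NFE2L1 and NFE2L2, is known as a control element of proteasome genes. It was found in 6 windows (15%, against 12.4% of all windows), those of Psmb5, Psmb6, Psmc6, Psmd9, Psmd12 and Psme4. The matches of the catalytic subunits Psmb5 and Psmb6 and of Psmc6 and Psme4, which had the largest positive differences of the 45, are shown.
Psmb5: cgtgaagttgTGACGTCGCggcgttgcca
Psmb6: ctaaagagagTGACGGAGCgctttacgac
Psmc6: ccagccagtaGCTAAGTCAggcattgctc
Psme4: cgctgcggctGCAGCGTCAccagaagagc
They lie at chr14:54618024-54618052 (minus strand), chr11:70525338-70525366 (plus strand), chr14:45329587-45329615 (plus strand) and chr11:30771758-30771786 (plus strand) on GRCm38.p6. The E-box CACGTG, the site of MYC and MAX, was found in 3 windows (7.5%, against 7.15%), those of Psma4, Psmd9 and Psme3, and the CCAAT box of NF-Y in 13 (32.5%, against 37.4%). Myc itself measured 5.90, 5.92 and 6.2 in WT replicates 1 to 3 and 9.69, 8.37 and 8.61 in KO replicates 1 to 3, a rise of 2.88 (SE 0.32, limma adjusted p = 0.00289) with no overlap. The 3 E-box genes differed by 0.097, 0.040 and 0.23, none called. A match is a description of the letters and not a binding site.

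Of the genes around the proteasome, 36 of 48 on 4 lists were measured, and 2 were called higher and 0 lower in KO, beside 2.30% and 2.08% of all genes. The lists were the immunoproteasome (3 genes measured), proteasome-associated factors and regulators (15), ubiquitin and its E1 enzymes (6), and shuttle factors with p97 and its adaptors (12). Their joint median was -0.013. Zfand5, a stress protein that stimulates the proteasome, measured 10.03, 10.25 and 10.42 in WT replicates 1 to 3 and 10.77, 10.99 and 10.92 in KO replicates 1 to 3, a rise of 0.66 (SE 0.13, limma adjusted p = 0.0367). All KO arrays lay above all WT arrays. Ubxn7, an adaptor that links p97 to ubiquitin ligases, rose by 0.80. Its values were 6.33, 6.36 and 6.47 in WT replicates 1 to 3 and 6.96, 7.21 and 7.38 in KO replicates 1 to 3 (limma adjusted p = 0.0168), again without overlap. Neither call held with any one of the 3 WT arrays, KO replicate 2 or KO replicate 3 removed, or under the unequal-variance test, and that of Zfand5 was also lost with a variance trend (limma adjusted p = 0.0521).

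The transcription factors that control proteasome genes were not called in the main comparison. Nfe2l1, which drives proteasome transcription when proteasome activity is low, measured 8.07, 8.30 and 8.17 in WT replicates 1 to 3 and 8.02, 7.57 and 7.82 in KO replicates 1 to 3 (-0.38, limma adjusted p = 0.237), with all KO arrays below all WT arrays. Nfe2l2, the oxidative stress regulator NRF2, measured 9.71, 9.79 and 9.92 in WT replicates 1 to 3 and 10.19, 11.45 and 11.41 in KO replicates 1 to 3 (1.21, limma adjusted p = 0.0925). All KO arrays lay above WT, KO replicate 1 by far less than the others. Without KO replicate 1 it was higher by 1.62 (limma adjusted p = 0.000585), where 3.91% of all genes were called higher. With array weights Nfe2l2 was higher by 1.46 (limma adjusted p = 0.0126), where 3.59% were called higher. With both arrays numbered 1 left out, chosen after the data were seen, it was higher by 1.57 (limma adjusted p = 0.00135), where 3.72% were called higher. Pomp, the chaperone that closes the beta ring, measured 10.24, 10.50 and 10.29 in WT replicates 1 to 3 and 10.04, 9.78 and 9.87 in KO replicates 1 to 3 (-0.45, limma adjusted p = 0.113), with all KO arrays below all WT arrays.

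For 5 of the 45 genes more than 1 probe set was listed, and they did not always point the same way. Psma3 had 3, with differences of -0.16 for the brightest, -0.10 and 0.19. Psma5 had 2, with 0.14 for the brighter and 0.57 for the other (limma adjusted p over all probe sets = 0.172). The second probe set of Psmb3 differed by 0.36 and that of Psmd2 by 0.035, against 0.017 and -0.16 for the brighter, while both probe sets of Psmc1 were positive, at 0.17 and 0.19. None of the 11 was called. RefSeq lists pseudogene copies of several core subunits, such as Psma5-ps, Psmb5-ps and Psmb6-ps. Probe sequences were not examined, so whether these copies add to the signal is not known. The values of these genes are uncertain to that extent.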

How the data were processed

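RNA of B220+ SiglecH+ splenic pDCs was amplified (NuGen PICO SL) and biotin-labelled before hybridisation, per the labels' protocols. The authors deposited 1 log2 level for each probe set and array. That scale was inferred from the range of the values. How the authors summarised and normalized the probes is not given in the sources used here. Array medians were nearly equal, so a change of all transcripts in 1 direction cannot be seen. Of 34760 probe sets, 21640 had 1 gene symbol in the platform annotation, 1321 several and 11799 none. KO was compared with WT over 19937 genes with limma 3.58.1 (R 4.3.3; lmFit, eBayes, no covariates, no filter), with two-sided p-values adjusted by Benjamini-Hochberg over all genes at 0.05, after tests on simulated data. Exact permutation tests used all 20 relabellings. No detection calls were used. Values in every array are given for called genes, the catalytic subunits, the largest positive and negative difference of each role group, and Irf8, Myc, Nfe2l1, Nfe2l2 and Pomp, which were named in any case (the immunoproteasome subunits by mean and SD); Psmg1, Psmg3 and Psma4 were added after their values were seen. Alternatives were quantile normalization, median centring, bright genes alone, averaged probe sets, a robust variance trend, array weights, a block for the replicate number (statmod 1.5.0 installed), omission of single arrays, and an unequal-variance test. The members and lists were chosen with earlier results of these data known. Promoter windows came from RefSeq (GRCm38.p6). Figures used matplotlib 3.10.9.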

Additional observations from a re-analysis of the deposited data

How the results depend on the processing

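No constitutive proteasome gene was called higher in KO under any alternative but 1: with both arrays numbered 1 left out, chosen after the data were seen, 1 was higher (Psmb7) and 1 lower (Psme2). Array weights gave 1 lower gene (Psme2, adjusted p = 0.0348) and leaving out single arrays gave 0 to 2 (Psme2 and Psmg3 without KO replicate 1) lower and 0 higher. With the replicate number as a block (replicate block), 2 were lower, Psme2 by 0.71 (adjusted p = 0.0429) and Psmg4 by 0.65 (adjusted p = 0.0335). The number was not treated as a pairing, because deviations of same-numbered arrays correlated at 0.38, 0.097 and 0.25, the second under the limit of 0.1, and KO replicate 2 correlated more with WT replicate 3 (0.20) than with WT replicate 2. Such correlations over 3 arrays per genotype depend on each other, so they cannot exclude a pairing. The median over the 45 genes stayed between -0.12 and -0.012. Of 673 recomputed differences of the 45 genes, 632 kept direction and side of the threshold, 7 passed it and 34, of 13 genes whose reported differences were at most 0.14, changed sign. The sign of the other 32 held without any single array, but 23 of them moved by over 1.5 times, such as Psmg4 (-0.997 to -0.26), Psmb1 (-0.78 to -0.16), Psmb5 (-0.35 to -0.040) and Psmf1 (-0.50 to -0.096). Single-array ranges of the 13 were -0.086 to 0.38 for Psma4, -0.020 to 0.28 for Psma5, -0.20 to 0.058 for Psma7, -0.032 to 0.058 for Psmb11, -0.12 to 0.26 for Psmb3, -0.056 to 0.069 for Psmc3, -0.043 to 0.11 for Psmc4, -0.10 to 0.047 for Psmc5, -0.15 to 0.020 for Psmd11, -0.073 to 0.22 for Psmd5, -0.21 to 0.20 for Psmd9, -0.16 to 0.049 for Psme1 and -0.47 to 0.16 for Psmg1. Quantile normalization turned Psmb3 to -0.044 and Psmc4 to -0.029, array weights Psmb3 to -0.065 and Psmd9 to -0.098, and leaving out both arrays numbered 1 turned Psmd11 to 0.0011, Psmd5 to -0.086, Psmd9 to -0.13 and Psme1 to 0.071. Pathway genes called higher numbered 1 with a variance trend, 4 with array weights, 3 with the block, 0 with the unequal-variance test, 4 without the arrays numbered 1 and 0 to 4 without single arrays, and 1, Pomp, was lower with array weights. Nfe2l2 was among the higher ones with array weights, with the block (limma adjusted p = 0.0277), without KO replicate 1 and without the arrays numbered 1. Over all genes, higher and lower calls were 716 and 647 with array weights, 707 and 655 with the block, 2 and 2 with the unequal-variance test, 741 and 641 without the arrays numbered 1, and 249 to 780 and 202 to 719 without single arrays. The causes were not tested. The number of arrays limits what can be called.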
